A study of Homo sapiens with 4 samples.

Results

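The interferon response and RNA sensor genes are 39 genes chosen by their known roles: 6 RNA sensors and their adaptor, 4 transcription factors of the interferon pathway, and 29 genes whose products act against viruses or limit the response. The choice was made with earlier results of these data known, so counts set beside shares of all genes are descriptions only. These 39 genes were examined in cultures of T84, an established epithelial line from a human colorectal carcinoma, kept on permeable supports after transfection of short RNAs. Each of 4 groups had 1 Affymetrix U133 Plus 2.0 array. The 2-miRNA array held cells that received 15 pmol of miR-451 together with miR-338-3p and were harvested on day 5, and the 4-miRNA array held cells, harvested on the same day, that received 15 pmol of these plus miR-33a and miR-210. The control arrays held cells given 15 pmol of a negative-control short RNA with little homology to human miRNAs, harvested on day 5 or on day 7. All 4 cultures were therefore of the same line, had received short RNA and had been grown on filters. No array of cells without transfection was analysed here, so the comparisons concern induction beyond that of the control short RNA and not induction by transfection itself. In all, 65 probe sets were annotated to 38 of the 39 genes by a single symbol. No probe set was annotated to STAT2, which is not analysed here. A filter on low signal was passed by 56 of these probe sets and by 35 members, among 12264 genes of the 19775 with a named probe set. DHX58, IFI44L and TRIM22 did not pass.

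Cells detect foreign RNA with a small set of proteins. RIGI and IFIH1 (also known as RIG-I and MDA5) are cytoplasmic helicases that bind duplex RNA and signal through the mitochondrial adaptor MAVS, TLR3 binds duplex RNA in endosomes, and EIF2AK2 (PKR) is a kinase that duplex RNA activates to stop translation. Signalling from these sensors induces type I and type III interferons, whose receptors activate a complex that contains STAT2 and IRF9 and binds an interferon-response motif in front of its target genes. The targets include the sensors themselves, so a response amplifies its own detection machinery, and intestinal epithelial cells are known for their response to type III interferons.

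The RNA that differed between the cultures was miR-338-3p, miR-451, miR-210, miR-33a or the control short RNA, and sequences are shown for miR-338-3p, miR-210 and miR-33a. The sequences are the mature human miRNAs of RefSeq (GRCh38.p14), written 5′ to 3′ with the seed, bases 2 to 8, in capitals. The labels do not give the arm of miR-210 and miR-33a, and the arms shown are the 3p arm and the 5p arm. The sequences of the oligonucleotides themselves, their chemistry and that of the control short RNA were not known here.
hsa-miR-338-3p: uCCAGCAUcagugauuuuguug
hsa-miR-210-3p: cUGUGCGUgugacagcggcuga
hsa-miR-33a-5p: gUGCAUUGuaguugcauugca
The 3 seeds differ from each other, so no pair of these miRNAs shares a seed.

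The members' own promoters are shown for IFIH1, SAMD9, IFIT1 and ISG15, which serve as examples of 3 patterns described below: high on both miRNA arrays (IFIH1 and SAMD9), high on the 2-miRNA array alone (IFIT1), and nearly level (ISG15). Each stretch is the 250 bases before the annotated start in RefSeq (GRCh38.p14), written 5′ to 3′ on the strand of the gene. Capitals mark the letters of GAAANNGAAA or of its reverse complement TTTCNNTTTC, a core form of the interferon-response motif; copies may overlap.
IFIH1 (chr2:162318685-162318934, minus strand): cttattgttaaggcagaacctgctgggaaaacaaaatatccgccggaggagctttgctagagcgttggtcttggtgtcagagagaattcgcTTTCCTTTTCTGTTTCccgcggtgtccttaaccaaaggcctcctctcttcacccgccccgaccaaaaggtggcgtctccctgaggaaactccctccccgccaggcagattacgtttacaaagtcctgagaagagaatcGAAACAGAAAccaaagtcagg
SAMD9 (chr7:93117980-93118229, minus strand): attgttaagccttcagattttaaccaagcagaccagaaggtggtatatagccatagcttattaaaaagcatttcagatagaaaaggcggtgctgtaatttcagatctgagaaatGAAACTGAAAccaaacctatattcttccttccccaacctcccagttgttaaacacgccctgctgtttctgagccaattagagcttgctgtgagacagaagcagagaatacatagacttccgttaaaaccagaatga
IFIT1 (chr10:89392373-89392622, plus strand): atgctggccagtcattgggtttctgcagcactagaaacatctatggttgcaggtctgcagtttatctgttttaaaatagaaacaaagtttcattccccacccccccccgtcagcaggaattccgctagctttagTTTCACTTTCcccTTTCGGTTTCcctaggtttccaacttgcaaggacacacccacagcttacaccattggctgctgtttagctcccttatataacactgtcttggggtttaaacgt
ISG15 (chr1:1013247-1013496, plus strand): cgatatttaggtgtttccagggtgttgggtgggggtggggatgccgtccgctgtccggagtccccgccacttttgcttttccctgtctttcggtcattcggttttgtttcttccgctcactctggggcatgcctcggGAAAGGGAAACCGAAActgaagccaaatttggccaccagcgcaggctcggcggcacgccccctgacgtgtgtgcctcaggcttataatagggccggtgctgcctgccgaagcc
The motif was searched on both strands in windows from 250 bases before to 50 bases after each start. At least 1 match was found for 20 of the 29 members with a window in that set, against 1195 of 27305 genes (4.38%). IFIH1 had 3 matches, IFI6 and IFIT5 3 each, and IFIT1 and ISG15 2 each. The windows of HERC6, IFI35, IRF1, IRF9, MAVS, OAS1, RIGI, STAT2 and XAF1 held none of these letters. A match is a description of letters and was not tested as a binding site.

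**Figure D1:**
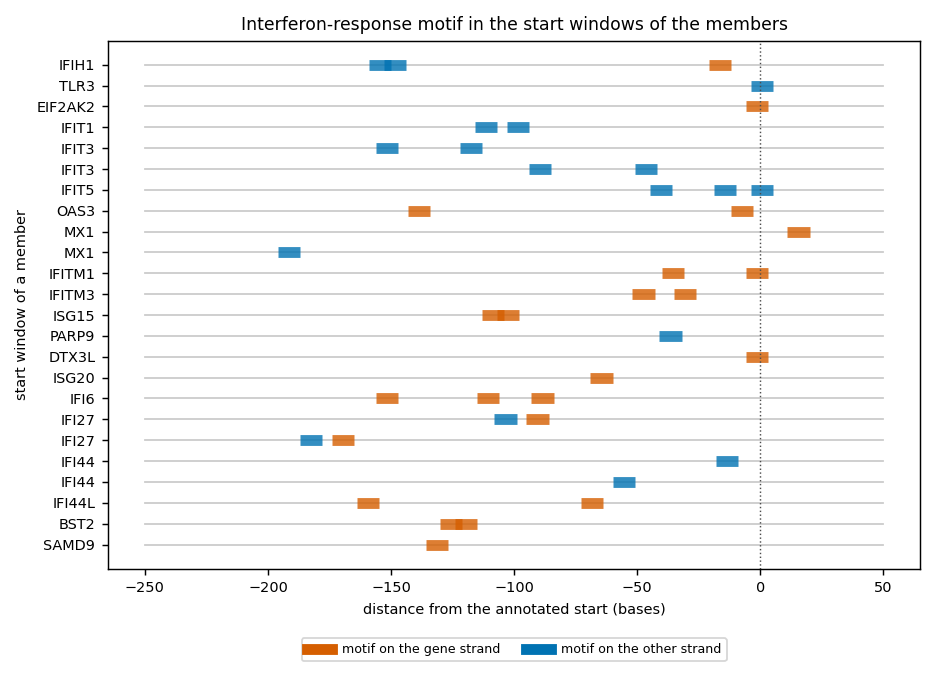
Each row is a start window of a member with at least 1 match, the horizontal axis is the distance from the annotated start in bases, and blocks are matches to GAAANNGAAA on the strand of the gene (orange) or on the other strand (blue). A gene with several annotated starts has several rows; in IFIT1 both matches lie between 116 and 94 bases before the start, and in IFIH1 the match nearest to the start lies 21 to 12 bases before it.

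Signals of the deposited table were scaled so that the trimmed mean of each array was 500, and every difference was taken on the log2 scale after 32 had been added to the scaled signal, which understates the differences of dim genes. A gene counted as at least 2-fold higher or lower when that difference reached 1 in size. With 1 array per group there is no test across samples and no error between cultures, the number of arrays limits the precision, and no p-value is given. As deposited, the miRNA arrays were brighter (trimmed means 147 and 150) than the control arrays (76.6 and 74.3), so brightness and miRNA treatment cannot be told apart. The reference gene GAPDH was lower on both miRNA arrays than on the day 5 control, by −0.74 and −0.81, as was ACTB, by −0.88 and −0.75. The median gene lay at −0.16 and −0.15 in the same comparisons. The highest deposited signals were similar, at 18739 and 17832 on the miRNA arrays and 18749 and 17966 on the controls. The scaling factors were 3.39 and 3.33 for the miRNA arrays and 6.53 and 6.73 for the controls. After scaling, the highest signals were thus 63579 and 59437 against 122364 and 120874. Whether this affected the differences of the brightest genes was not tested. Between pairs of probe sets of the same gene, over 2625 genes with a mean log2 of 9 or more, the SD of a probe set's own difference was 0.58 for each miRNA array against the day 5 control, 0.27 between the controls and 0.18 between the miRNA arrays. All 12 intestinal epithelium markers passed the filter. Of the 11 leukocyte markers 8 had a named probe set and 2 passed (summed scaled signals from 156 to 301). None of the 4 plasmacytoid dendritic cell markers passed, and 3 of 7 fibroblast and 1 of 5 endothelium markers did. The fibroblast marker THY1 had signals of 131, 25.0, 164 and 227 on the 2-miRNA, 4-miRNA, day 5 and day 7 arrays. Its other probe set that passed gave 140, 103, 128 and 18.4, so the order of the arrays depended on the probe set. The part of these cell types in the results was not tested.

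**Figure D2:**
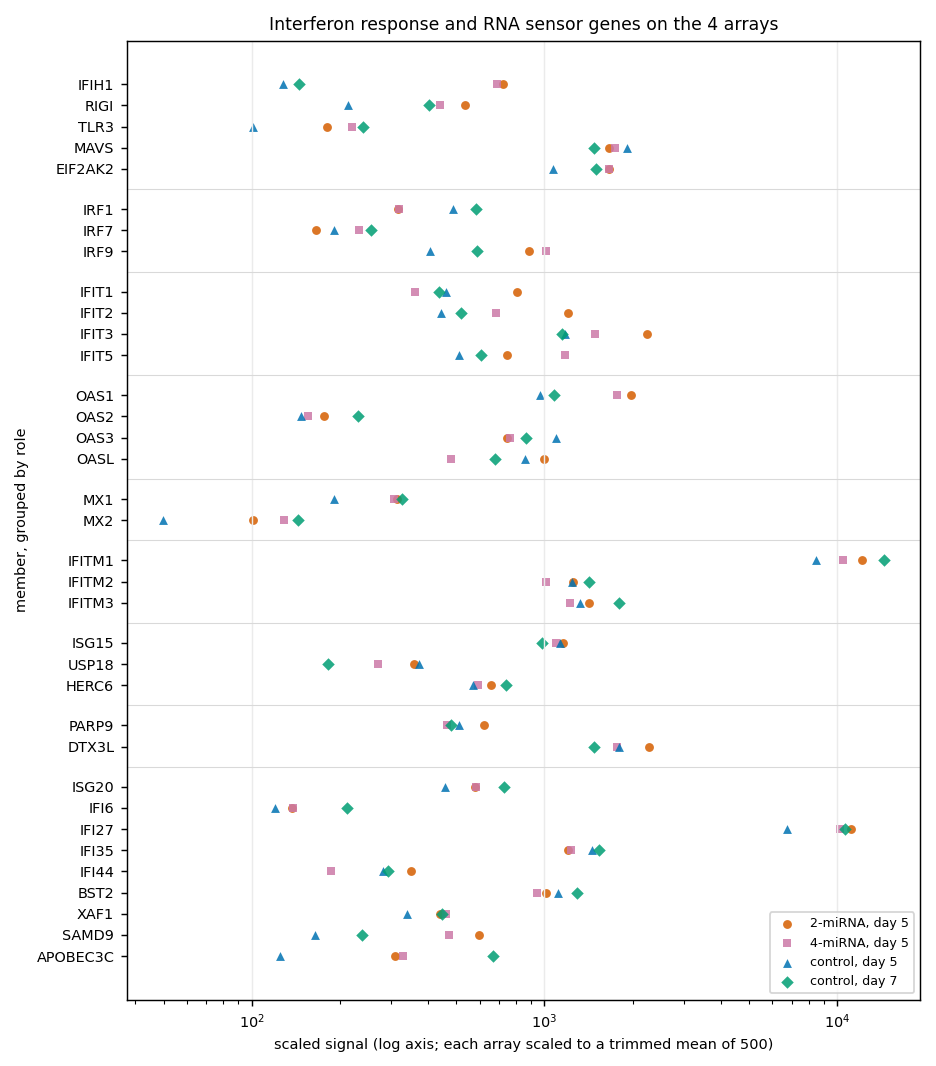
Scaled signal (log axis) of the 35 members that passed the filter, on the 2-miRNA array (circle), 4-miRNA array (square), day 5 control (triangle) and day 7 control (diamond); each point is 1 array and members are grouped by role. IFIH1 shows the miRNA arrays at 691 and 723, apart from the controls at 128 and 145, while the 4 values of ISG15 lie between 980 and 1161.

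Among the RNA sensors, IFIH1 stood apart on both miRNA arrays. Its scaled signal was 723 on the 2-miRNA array, 691 on the 4-miRNA array and 128 and 145 on the controls of day 5 and day 7. The miRNA arrays thus lay within 0.06 of each other, the controls within 0.15, and the groups did not overlap. The log2 differences were 2.24 and 2.18 against day 5 and 2.09 and 2.03 against day 7, each above the 99th percentile of all genes (99.3, 99.2, 99.4 and 99.6). These values come from 1 probe set, 219209_at. The other probe sets of IFIH1 were under the filter, with scaled signals from 13.5 to 102 for 1555464_at and from 1.86 to 47.3 for 216020_at, and against the day 5 control their differences were between −0.42 and 0.17. Against day 7, where they had their lowest signals, the differences were 1.37 and 1.56 for 1555464_at and 1.23 and 0.63 for 216020_at. The values of IFIH1 among the genes that passed therefore rest on a single probe set.

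RIGI, the other cytoplasmic helicase, was also lowest in the day 5 control, but the day 7 control came close to the miRNA arrays. Its brightest probe set, 242961_x_at, gave 535 and 440 on the 2-miRNA and 4-miRNA arrays, 213 on day 5 and 403 on day 7. The name ending _x_at marks a probe set with probes that can match other transcripts. The differences from day 5 were 1.21 and 0.95, those from day 7 were 0.38 and 0.12, and the day 7 control itself was 0.83 above day 5. The remaining probe sets of RIGI were higher than day 5 as well, by 0.66 and 0.79 with 2 miRNAs and by 0.55 and 0.81 with 4. For 222793_at the day 7 control, at 202, lay above both miRNA arrays, at 189 and 193.

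TLR3 had signals of 181 on the 2-miRNA array, 219 on the 4-miRNA array, 101 on day 5 and 240 on day 7. The day 7 control was the highest and stood 1.04 above day 5, and both miRNA arrays lay between the controls. A further probe set of TLR3, at 93.5, 105, 127 and 162 in the same order, put both miRNA arrays under both controls.

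EIF2AK2 gave 1660 and 1659 on the 2-miRNA and 4-miRNA arrays, 1072 on day 5 and 1504 on day 7 by its brightest probe set. Both miRNA arrays were 0.62 above day 5 and 0.14 above day 7. Its probe set 204211_x_at placed them level with day 5 (1422 and 1336 against 1464) and above day 7 (927), so the order of the controls depended on the probe set.

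MAVS, the adaptor downstream of both helicases, varied least of the 5 genes of this group that passed the filter, with signals of 1666, 1742, 1912 and 1477 on its brightest probe set for the 2-miRNA, 4-miRNA, day 5 and day 7 arrays. Its 4 probe sets disagreed in sign against the day 5 control, with differences from −0.55 to 0.67 for the 2-miRNA array and from −0.44 to 1.17 for the 4-miRNA array. DHX58, a helicase that modulates the other pair, was under the filter, with signals between 9.75 and 28.0.

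Of the transcription factors, IRF9, the DNA-binding partner of STAT2, was higher on the miRNA arrays. It gave 885 on the 2-miRNA array, 1011 on the 4-miRNA array, 406 on day 5 and 587 on day 7. Both miRNA arrays were above both controls, by 1.07 and 1.25 against day 5 and by 0.57 and 0.75 against day 7. A probe set shared by IRF9 and RNF31 did not show that order, with 169, 214, 296 and 139. IRF1, a factor that responds to interferon and acts on many of the same genes, lay the other way at 316 and 319 on the miRNA arrays, 488 on day 5 and 582 on day 7. Both of its probe sets placed both miRNA arrays under both controls. IRF7, which amplifies interferon production, ranged from 165 to 255, and its values overlapped between miRNA and control arrays.

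The IFIT genes, which lie together on chromosome 10 and encode proteins that bind viral RNA or slow its translation, differed between the 2 miRNA mixes. IFIT2 gave 1203 on the 2-miRNA array, 684 on the 4-miRNA array, 441 on day 5 and 519 on day 7. IFIT3 gave 2235, 1485, 1179 and 1149 in that order. IFIT1 gave 808, 361, 460 and 435. By these brightest probe sets the 2-miRNA array was the highest of the 4 for all 3 genes. The 4-miRNA array was between it and the controls for IFIT2 and IFIT3 and under both controls for IFIT1. The other probe set of IFIT3 (472, 376, 488 and 419) had day 5 highest and the 4-miRNA array under both controls. That of IFIT2 (214, 171, 107 and 183) had the 4-miRNA array between the controls.

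Against the day 5 control the 2-miRNA array was higher by 1.38 for IFIT2, 0.90 for IFIT3 and 0.77 for IFIT1. Against the 2-miRNA array the 4-miRNA array was lower by −0.79, −0.58 and −1.09, at percentiles 2.53, 4.83 and 1.05 of all genes. A further probe set of IFIT2 (0.82 for the 2-miRNA array against day 5, −0.27 between the mixes) had the same signs, and one of IFIT3 (−0.04 and −0.30) had the sign between the mixes alone. IFIT5 ran the other way between the mixes, with 747 and 1172 on the 2-miRNA and 4-miRNA arrays, 511 on day 5 and 609 on day 7. It was the member with the largest positive difference between the mixes, 0.63, and 0.39 by its other probe set, which put both miRNA arrays under both controls (231 and 313 against 329 and 351).

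The OAS genes encode antiviral enzymes that duplex RNA activates; OASL is a relative of them. OAS1 gave 1978 on the 2-miRNA array, 1773 on the 4-miRNA array, 969 on day 5 and 1081 on day 7. These values place both miRNA arrays above both controls, by 1.01 and 0.85 against day 5. By its other probe set, 202869_at, the day 7 control was the highest (1645) and the miRNA arrays, at 1264 and 1300, were 0.29 and 0.32 above day 5. OASL gave 994, 480, 858 and 677 on the 2-miRNA, 4-miRNA, day 5 and day 7 arrays. Like IFIT1 it was highest on the 2-miRNA array and lowest on the 4-miRNA array, with −1.003 between them (percentile 1.32) and −0.65 by its other probe set. OAS3 was lower on the miRNA arrays, at 744 and 760, than on the controls, at 1097 and 865.

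OAS2 was between 147 and 230 on its brightest probe set, with the day 7 control highest. Its other probe sets put both miRNA arrays above both controls. On 204972_at the miRNA arrays were at 160 and 177 and the controls at 107 and 105. On 206553_at, which was under the array median on both controls (21.1 and 66.8), the miRNA arrays were at 126 and 170.

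The MX genes encode GTPases that trap viral components. MX1 gave 314 on the 2-miRNA array, 306 on the 4-miRNA array, 190 on day 5 and 325 on day 7. MX2 gave 101, 129, 49.7 and 144. For both genes the day 5 control was the low array and the day 7 control the highest, so that neither miRNA array lay above the range of the controls. MX2 was under the array median on day 5, and its day 7 signal was at least 1.45-fold higher when that median stands in for the day 5 signal.

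IFITM proteins block fusion of viruses with membranes. IFITM1 gave 12139 on the 2-miRNA array, 10503 on the 4-miRNA array, 8448 on day 5 and 14490 on day 7, and IFITM3 gave 1418, 1227, 1327 and 1793. All 3 IFITM genes were highest on day 7 (0.78, 0.18 and 0.42 above day 5 for IFITM1, IFITM2 and IFITM3), and their miRNA arrays were between −0.18 and −0.54 from that control. IFITM genes are close copies of each other: a probe set annotated to both IFITM1 and IFITM2 gave 5533, 5442, 5595 and 7822, again highest on day 7, and the values of single members are therefore uncertain.

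ISG15, a ubiquitin-like protein that is among the strongest markers of the interferon response, did not separate the arrays. Its signals were 1161 on the 2-miRNA array, 1091 on the 4-miRNA array, 1132 on day 5 and 980 on day 7, with differences from day 5 of 0.04 and −0.05. USP18, which removes ISG15 and restrains interferon signalling, gave 358, 271, 373 and 182, and both miRNA arrays lay between the controls. HERC6, an ISG15 ligase relative, ranged from 572 to 737. PARP9 and DTX3L, which work as a pair in the response, were highest on the 2-miRNA array (624 and 2279), and their 4-miRNA values (466 and 1767) were under the day 5 values (512 and 1791). The other probe set of PARP9, at 178, 121, 262 and 184, was highest on day 5 and put both miRNA arrays under both controls.

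Of the remaining effectors, SAMD9, a cytoplasmic restriction factor, had the second largest separation. It gave 597 on the 2-miRNA array, 471 on the 4-miRNA array, 164 on day 5 and 238 on day 7. Both miRNA arrays were above both controls, by 1.68 and 1.36 against day 5 and by 1.22 and 0.90 against day 7. Its other probe set, at 211, 180, 102 and 79.3, did the same, by 0.86 and 0.66 against day 5. Of the 16 members with several probe sets, SAMD9 was the 1 in which every one of them placed both miRNA arrays above both controls. The same share over all genes with several was not counted. Of single probe sets that passed, 15 of the 56 of members did so, beside 24.5% of all named ones.

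APOBEC3C, a cytidine deaminase that mutates viral DNA, had the widest difference between the controls. It gave 309 on the 2-miRNA array, 327 on the 4-miRNA array, 125 on day 5 and 669 on day 7. Day 7 was 2.16 above day 5 (percentile 99.7), and the miRNA arrays lay between the controls, about equally far from both. Its single probe set, 209584_x_at, can match relatives: APOBEC3B gave 3202 and 2750 on the miRNA arrays against 1250 and 1239 on the controls and did not share that order.

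IFI27 and IFI6, small mitochondrial proteins, had their low value on day 5. IFI27 gave 11186, 10233, 6727 and 10675 on the 2-miRNA, 4-miRNA, day 5 and day 7 arrays. IFI6 ranged from 120 on day 5 to 211 on day 7. IFI44, a cytoplasmic protein of the response, gave 349, 187, 280 and 292, and both of its probe sets were lower with 4 miRNAs than with 2 (−0.80 and −0.82). BST2, which tethers budding viruses, and IFI35 were lower on both miRNA arrays than on both controls, by small amounts (BST2 1010 and 944 against 1114 and 1289). ISG20, an exonuclease, was highest on day 7 by both probe sets, and XAF1, a promoter of cell death, ranged from 339 to 462 on its brightest. IFI44L and TRIM22 were under the filter, with signals of at most 44.9 and 56.2.

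Counted together against the day 5 control, the 2-miRNA array had 7 of 35 members at least 2-fold higher and none lower, beside 8.11% and 6.37% of all genes. The 7 were IFIH1, SAMD9, IFIT2, RIGI, APOBEC3C, IRF9 and OAS1. With the median over probe sets in place of the brightest, RIGI was at 0.79 and OAS1 at 0.65. That left 5 members at least 2-fold higher, beside 6.07% of all genes. With running-median centring, which centres the differences along the signal range, 9.37% of all genes were higher and 4.72% lower. The median member lay at 0.34, with 28 above 0, and the median gene at −0.16, with 40.6% above 0. On the 4-miRNA array 5 members were at least 2-fold higher (IFIH1, SAMD9, IRF9, APOBEC3C and IFIT5) and none lower, beside 8.03% and 6.7% of all genes, and the median was 0.25 with 21 above 0, beside 41% of all genes. IFIT5 was at 0.54 by the median over its probe sets. Both comparisons share the day 5 array, and the day 7 control also lay above it. There 3 members were at least 2-fold higher on day 7 (APOBEC3C, MX2 and TLR3) and none lower, beside 3.35% and 2.41% of all genes, with a median of 0.24 and 26 above 0, beside 49.3% of all genes.

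Against the day 7 control fewer members were past 2-fold. The 2-miRNA array had 3 members at least 2-fold higher (IFIH1, SAMD9 and IFIT2) and 1 lower (APOBEC3C), beside 6.19% and 4.03% of all genes. The median was 0.07, against −0.16 for all genes, and −0.02 without probe sets whose names end in _s_at or _x_at. With running-median centring the split was 4 higher and 0 lower, beside 7.45% and 3.03% of all genes. The 4-miRNA array had IFIH1 as its single member at least 2-fold higher and none lower, beside 5.63% and 4.15%, with a median of −0.11 against −0.15 for all genes. With running-median centring it had 3 members higher, beside 6.94% of all genes, and a median of 0.012.

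Set against the range of both controls, 9 of 35 members had both miRNA arrays above both controls, beside 22.8% of all genes, which is near the same share. They were IFIH1, SAMD9, OAS1, IRF9, IFIT2, IFIT3, IFIT5, EIF2AK2 and RIGI. IFIH1 was the 1 member whose lower miRNA array was at least 2-fold above the higher control, beside 3.12% of all genes; none was 2-fold below both in that way, beside 0.538%. Both miRNA arrays lay under both controls for 4 members (IRF1, OAS3, BST2 and IFI35), beside 41% of all genes. For the other 22 members the miRNA and control arrays overlapped. With running-median centring 13 members, beside 27.6% of all genes, lay above both controls.

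**Figure D3:**
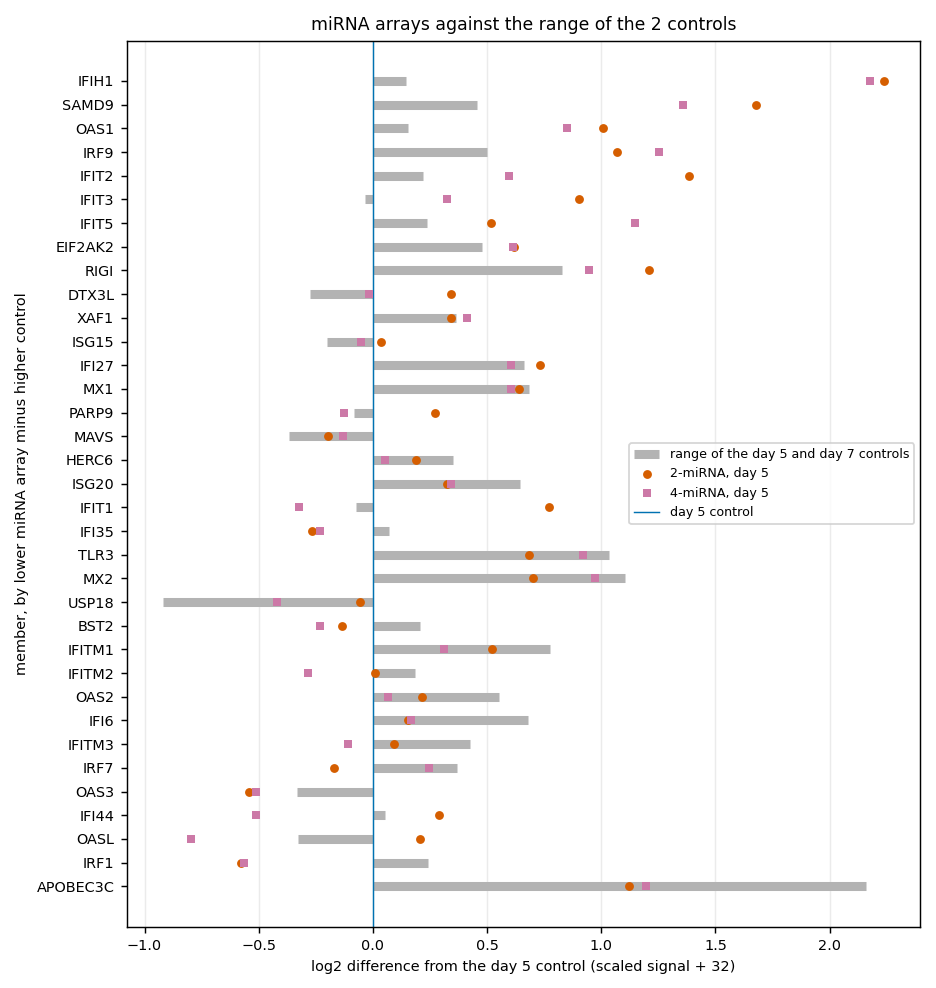
Log2 difference from the day 5 control (vertical line at 0) for the 35 members, ordered by the lower miRNA array minus the higher control; grey bars span the day 5 and day 7 controls, circles are the 2-miRNA array and squares the 4-miRNA array. In the top 9 rows both miRNA arrays lie beyond the bar, by 2.03 for IFIH1 and by 0.12 for RIGI, and in the rows of TLR3, MX1, MX2 and APOBEC3C the miRNA arrays lie on the bar or within its range.

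Between the mixes, 2 members were at least 2-fold lower with 4 miRNAs (IFIT1 and OASL, the latter at −1.003) and none higher, beside 1.33% and 1.04% of all genes. The median was −0.10, with 13 of 35 members above 0, beside 50.8% of all genes. The 2-miRNA array was the highest of the 4 for 14 members, beside 18.7% of all genes, and the 4-miRNA array for 3 (IRF9, IFIT5 and XAF1), beside 16.5%. For 7 of the 35 members the 2-miRNA array was the highest while the 4-miRNA array was not above both controls (IFIT1, OASL, IFI44, ISG15, IFI27, PARP9 and DTX3L), beside 6.21% of all genes. These ranks set no margin, and some margins were small. The 2-miRNA array was 0.04 above day 5 for ISG15 and 0.07 above day 7 for IFI27. The 4-miRNA array was 0.02 under day 5 for DTX3L. EIF2AK2 counted as highest on the 2-miRNA array with 1660 against 1659. The other probe set of PARP9 was highest on day 5. The day 7 control was the highest for 15 members, beside 28.1%.

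Probe sets of the same gene checked these differences within an array. Of the 16 members with several probe sets that passed the filter, 12 had differences of 1 sign on every probe set between the mixes, 10 for the 2-miRNA array against day 5 and 11 between the controls. Over the 5896 genes with several such probe sets the shares were 45.4%, 48.2% and 45.1%. The count was 9 for the 4-miRNA array against day 5 and for each miRNA array against day 7, beside 48.0%, 45.3% and 43.8%. These shares were not matched for the number of probe sets per gene. Between the mixes both signs occurred. EIF2AK2, IFI44, IFIT2, IFIT3, OASL, PARP9 and SAMD9 were lower with 4 miRNAs on every probe set. IFIT5, IRF1, ISG20, MAVS and TLR3 were higher. None of the 4 members with several such probe sets that were past 2-fold on the 2-miRNA array against day 5 (SAMD9, IFIT2, RIGI and OAS1) was past it on every probe set.

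**Figure D4:**
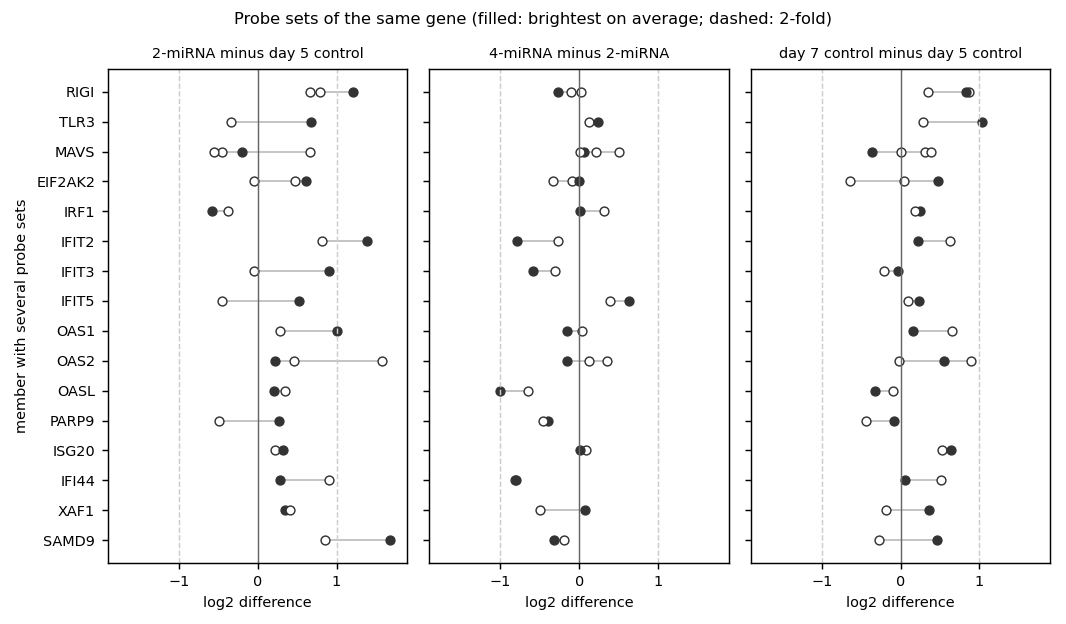
Log2 differences of each probe set for the 16 members with several that passed the filter, in 3 comparisons; filled points are the brightest probe set of a gene, open points its others, grey lines join them and dashed lines mark 2-fold. IFIT2, IFIT3, OASL, PARP9, IFI44, SAMD9 and EIF2AK2 have all their points under 0 between the mixes, and IFIT5, IRF1, ISG20, MAVS and TLR3 all above 0. In the left panel the points of MAVS spread from −0.55 to 0.67.

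The upstream and downstream genes of the pathway were described from lists that hold no member. Their values are those of the brightest probe set of each gene. TRAF3 and CXCL11 had 2 probe sets that passed, and IFNAR1, HELZ2, TNFSF10, ERAP1 and TAP2 had 3 each. The others of these were not compared, so the values of these genes rest on 1 probe set. Interferon ligands were near the floor: of 18 probe sets for 18 ligand genes 14 were under the array median on all 4 arrays, and the highest signal was 249, for IFNA17 on the day 7 control. IFNL1, a type III interferon, gave 102 and 88.1 on the miRNA arrays and 210 and 166 on the controls. Of the receptors and JAK-STAT genes, 11 of 13 passed the filter. On the 4-miRNA array 2 were at least 2-fold above day 5 and none lower, beside 8.03% and 6.7% of all genes. They were IL10RB, a chain of the type III interferon receptor (1.34), and IFNAR1, a chain of the type I receptor (1.13). None was past 2-fold on the 2-miRNA array against day 5, beside 8.11% higher and 6.37% lower. IL10RB gave 1667, 2322, 896 and 1577 on the 2-miRNA, 4-miRNA, day 5 and day 7 arrays, and the day 7 control was again close to the miRNA arrays. IFNAR1 gave 802, 1031, 453 and 822 in the same order, with the 2-miRNA array under the day 7 control. IRF2, which competes with IRF1, gave 432 and 483 on the 2-miRNA and 4-miRNA arrays, 240 on day 5 and 201 on day 7. Both miRNA arrays were above both controls, by 0.77 and 0.92 against day 5 and by 0.997 and 1.15 against day 7.

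Of the 18 genes of the relay between sensors and interferon genes that passed, 3 were above 0 on the 2-miRNA array against day 5, with a median of −0.47, beside 40.6% and −0.16 for all genes. On the 4-miRNA array 2 were above 0, with a median of −0.38, beside 41% and −0.15. TRAF3, an adaptor of MAVS signalling, was the 1 gene past 2-fold (−1.13 on the 2-miRNA array, 383 against 876).

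Of 37 further interferon-stimulated genes, 30 passed the filter. On the 2-miRNA array 4 were at least 2-fold above day 5 and none lower, beside 8.11% and 6.37% of all genes, and the median was 0.12. The 4 were DDX60, a helicase linked to RIGI (2.16), its relative DDX60L (1.91), CXCL11, a chemokine (1.79), and TRIM5, a restriction factor (1.63). All 4 values came from probe sets with names ending in _s_at, and DDX60, DDX60L and TRIM5 had no other that passed. On the 4-miRNA array 4 were higher (TRIM5, DDX60L, DDX60 and TNFSF10) and 1 lower (PNPT1, −1.11), beside 8.03% and 6.7% of all genes, with a median of −0.01. DDX60 gave 5119 on the 2-miRNA array, 2586 on the 4-miRNA array, 1123 on day 5 and 1311 on day 7. CXCL11 gave 404, 156, 94.5 and 92.8. Both were lower with 4 miRNAs than with 2, by −0.98 and −1.22, the direction of IFIT1, IFIT2 and OASL. HELZ2, a coactivator helicase, was past 2-fold the other way between the mixes (1.04), with 135, 311, 180 and 182. GBP2, a GTPase, was 1.06 higher on day 7 than on day 5 (326 against 140). CXCL10, a close relative of CXCL11, gave 162, 112, 128 and 44.2, so that its miRNA values overlapped the controls.

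Genes of antigen presentation and of NF-kB output were described as further genes that RNA sensing can engage. Of 15 antigen presentation genes 2 were above 0 on the 2-miRNA array against day 5 (median −0.28) and 6 on the 4-miRNA array (median −0.31), beside 40.6% and 41% of all genes. ERAP1, a peptide-trimming protease, was at 1.70 and 1.69 (2878 and 2868 on the miRNA arrays, 866 and 964 on the controls). ERAP2, its relative, was at 1.56 and 1.51 against day 7, with 246 and 236 on the miRNA arrays and 113 and 62.0 on the controls. TAP2, a subunit of the peptide transporter, was at −1.02 on the 4-miRNA array against day 5. Of 16 NF-kB output genes 7 and 6 were above 0 (both medians −0.09), near the share of all genes, and SOD2 was the 1 gene past 2-fold (1.09 on the 2-miRNA array).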

How the data were processed

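Total RNA of T84 cells was measured on 4 arrays, 1 per group. Per the submitters' processing notes, the authors used MAS5 to compute an intensity per probe set; the sources used here name neither a version nor a scaling target. The deposited intensities were on a linear scale and differed in level between arrays. With Python 3.11.15 and pandas 2.3.3, arrays were brought to a common trimmed mean (500, with 2% left out at each end), 32 was added and log2 taken. Of 54675 probe sets, 41097 had 1 gene symbol in the platform annotation, 1801 had several and 11777 were unnamed here; 41043 matched RefSeq of GRCh38.p14 by gene ID. A probe set passed with a mean log2 no lower than the median probe set, or with a signal at or over the 75th percentile on at least 1 array; every member that passed did so by its mean. The brightest probe set on average stood for its gene. Members were named when past 2-fold in any of 6 comparisons, and sensors and factors always; genes of other lists when past 2-fold, with GAPDH and ACTB. IFNA17 and the remaining members were named after their values were seen. The members and lists were chosen with earlier results of these data known. The calculation was tested on simulated data. Motifs were searched as letters.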

Additional observations from a re-analysis of the deposited data

How the results depend on the processing

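Pseudocounts of 16 and 64, no filter, a filter at the 70th percentile, quantile normalization, running-median centring, scaling to the 75th percentile, the median over probe sets and leaving out probe sets ending in _s_at or _x_at were tried. No member changed sign in a comparison where it was past 2-fold, under the settings that gave it a value. Several members did in comparisons where they were under 2-fold, and examples follow. Without _s_at and _x_at probe sets RIGI did against day 7 (−0.08 and −0.06), where the 2-miRNA median was −0.02, and between the mixes (0.02). By the median over probe sets IFIT5 did on the 2-miRNA array against day 7 (−0.13). By that median MAVS did against day 7 (−0.19 and −0.05) and between the controls (0.16). With running-median centring IRF7 did on the 4-miRNA array against day 7 (0.006). Without _s_at and _x_at probe sets 27 members passed the filter. Of these 4 (2-miRNA) and 3 (4-miRNA) were at least 2-fold above day 5, beside 9.36% and 9.08% of all genes. With this setting 0 were lower than day 7 on the 2-miRNA array and 1 was lower between the mixes, beside 4.08% and 1.59%. The median between the controls was 0.37, and OAS1 was 0.29 above day 5 on the 2-miRNA array. With running-median centring the 4-miRNA array had 8 members above day 5 (median 0.35) and 3 above day 7 (median 0.012), and the 2-miRNA array 0 lower than day 7 (median 0.23). That centring moved the median of all genes to −0.07 and −0.04 against day 5, with 9.37% higher and 4.72% lower for 2 miRNAs and 9.34% and 4.68% for 4, and against day 7 with 7.45% and 3.03%, and 6.94% and 2.72%. The 2-miRNA median against day 7 was 0.20 with the 70th percentile filter. That filter and a pseudocount of 64 each left 1 member higher between the controls, beside 1.68% and 2.47% of all genes. With that pseudocount 0 members were lower than day 7 on the 2-miRNA array, beside 2.68%. Between the mixes 1 member was lower with a pseudocount of 64, quantile normalization, scaling to the 75th percentile or the median over probe sets. The shares of all genes were 0.717%, 1.06%, 1.26% and 1.23% in that order, and OASL was then between −0.83 and −0.98. With no filter 1 member was lower than day 5 on the 4-miRNA array, beside 10% of all genes. No paired analysis was possible because each group had 1 array. The causes were not tested.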
